A study of Homo sapiens with 6 samples.

Results

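The matrix metalloproteinases (MMPs) and their tissue inhibitors (TIMPs) were examined in HK-2 cells, an immortalised human proximal tubule line, through 10 genes chosen by symbol: MMP1, MMP2, MMP7, MMP14, MMP15, MMP24, ADAMTS1, TIMP1, TIMP2 and TIMP3. Of the 16116 genes in the deposited table, 9 of these 10 had a row, and TIMP3 was not analysed here. RNA-seq was available from 3 wild-type (WT) libraries and 3 knockout (KO) libraries, with no treatment named in the labels. The genotype labels give FAM134B-KO, FAM134B being the older name of the ER-phagy receptor gene RETREG1, while the series design text gives TAX1BP1. The labels do not say whether the KO cells were 1 clone or several, or whether libraries of a group came from separate cultures, so what a p-value weighs here is library-to-library spread, and that spread may be technical.

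MMPs are zinc-dependent endopeptidases made as inactive precursors. An N-terminal propeptide holds the zinc ion until it is cleaved or displaced, after which the enzymes cut collagens, laminins, fibronectin and many cell-surface proteins. Some are secreted and others are anchored in the membrane, and TIMPs block them by occupying the active site. In the kidney this system turns over the tubular basement membrane, and MMP7 in particular is known as a gene that injured tubular epithelium switches on.

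RETREG1 was lower in the KO libraries (4.41 ± 0.227 against 1.75 ± 0.194 CPM, SD, n = 3 each) and TAX1BP1 was at 156 ± 6.30 and 151 ± 9.46 CPM. CPM here are reads relative to library size, scaled with TMM factors, which correct for composition. Libraries held 16796964 to 17127468 estimated reads, so that 3 reads, taken as the floor, lay at 0.175 to 0.179 CPM. Of the 12 renal epithelial markers listed, 6 were tested, and their summed level over all 12 was 1730 to 1847 CPM in WT and 1510 to 1674 CPM in KO. The keratin genes KRT7, KRT8 and KRT18 and the lineage factor gene PAX8 were abundant, with KRT7 and KRT8 falling by 0.96 and 0.66 on the log2 scale and PAX8 rising by 0.29, as was the brush border enzyme gene GGT1 (208 to 242 CPM, with near-identical copies among which reads can be split), whereas 4 other brush border or tubular transport genes, LRP2, AQP1, SLC34A1 and ANPEP, had at most 3 reads in any library and CUBN at most 8. Of the same list, EPCAM rose from 97.5 ± 5.84 to 119 ± 0.841 CPM (adjusted p = 0.000108 in edgeR). The cadherin gene CDH1, also on it, was near absent, with at most 2 reads in any library. The summed endothelial markers reached at most 0.713 CPM and the distal nephron markers at most 0.524 CPM. The fibroblast list summed to 20.7 to 27.1 CPM in WT and 16.7 to 19.2 CPM in KO, almost all of it COL1A1, which fell by 0.42 on the log2 scale (adjusted p = 0.000461 in edgeR). The leukocyte list summed to 20.9 to 25.4 CPM in WT and 23.5 to 24.7 CPM in KO, almost all of it CD68, with PTPRC at 0 reads in 5 libraries and 1 read in KO replicate 2. What part these marker levels have in the results on the members was not tested.

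The promoter windows of the 3 member genes that fell in KO show how differently their starts are built. RefSeq promoter windows (GRCh38.p14, 250 bases before to 50 after the start) were available for 6 of the 10 members, and those of MMP7 (chr11:102530698-102530997, minus strand), MMP14 (chr14:22836335-22836634, plus strand) and MMP24 (chr20:35226440-35226739, plus strand) are printed 5′ to 3′ along the gene. Capitals mark letter matches on either strand to TGAGTCA (AP-1), TATAAA (the TATA box), CTTTGA (a core of TCF sites) and GGGCGG (the GC box bound by Sp1).
MMP7: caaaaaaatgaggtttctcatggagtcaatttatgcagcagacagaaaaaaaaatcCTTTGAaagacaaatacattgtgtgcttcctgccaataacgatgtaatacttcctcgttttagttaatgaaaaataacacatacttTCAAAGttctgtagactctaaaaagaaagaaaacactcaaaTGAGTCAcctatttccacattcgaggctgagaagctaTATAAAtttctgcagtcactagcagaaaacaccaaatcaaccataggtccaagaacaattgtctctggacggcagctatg
MMP14: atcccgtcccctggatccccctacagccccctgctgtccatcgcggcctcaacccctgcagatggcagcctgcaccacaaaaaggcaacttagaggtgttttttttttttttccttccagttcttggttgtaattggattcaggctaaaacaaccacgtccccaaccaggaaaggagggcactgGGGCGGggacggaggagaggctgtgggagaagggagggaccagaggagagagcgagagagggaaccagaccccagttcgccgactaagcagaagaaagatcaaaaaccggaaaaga
MMP24: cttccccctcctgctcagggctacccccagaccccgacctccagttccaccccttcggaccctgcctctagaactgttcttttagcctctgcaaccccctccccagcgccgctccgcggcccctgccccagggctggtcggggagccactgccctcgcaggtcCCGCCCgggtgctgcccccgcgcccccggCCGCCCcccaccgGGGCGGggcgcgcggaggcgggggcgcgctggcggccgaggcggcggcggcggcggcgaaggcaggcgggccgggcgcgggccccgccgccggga
The MMP7 window held 1 AP-1 match starting 67 bases before the start, 1 TATA match 30 bases before it, and 2 TCF matches, 194 and 108 bases before it, with 0 GC box matches. The MMP14 window held 1 GC box match, 66 bases before the start, and the MMP24 window held 3, at 87, 58 and 45 bases before it. Neither held any of the other 3 motifs. No marked matches overlapped. Of 27305 RefSeq windows of this length, 4.92% held the AP-1 letters, 12.0% the TATA letters, 13.1% the TCF letters and 44.6% the GC box letters. The MMP15 and TIMP1 windows held 5 and 2 GC box matches and 0 of the other motifs. A letter match describes the sequence and does not show that a factor binds there.

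**Figure D1:**
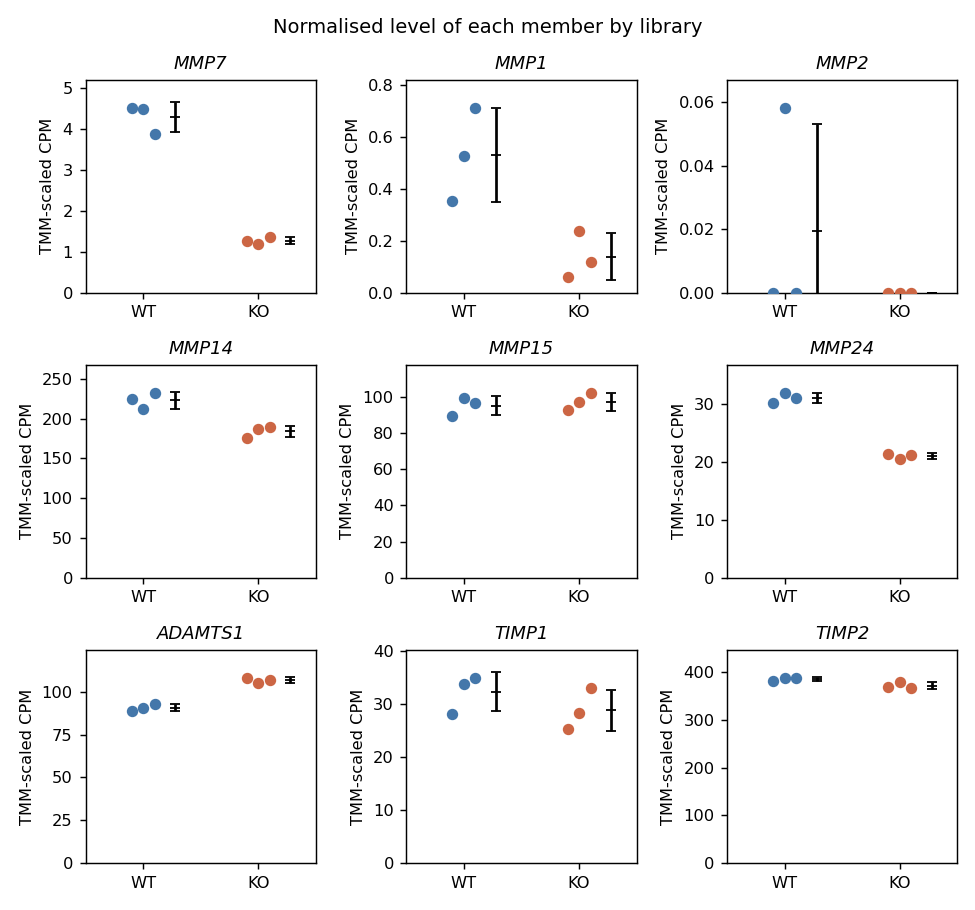
Level of each member in every library, in TMM-scaled CPM on a linear axis from 0 with its own range per panel; points are libraries in replicate order, and black bars give the mean and SD of 3 libraries. MMP7, MMP24 and MMP14 were lower in all KO libraries than in any WT library, ADAMTS1 was higher, and MMP15 and TIMP1 overlapped between the groups; MMP1 did not exceed 12 reads and MMP2 did not exceed 1 read in any library.

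Among the tested members, the secreted MMP7 and the membrane-type MMP14 and MMP24 were lower in KO, while the membrane-type MMP15 was not called. TIMP1 and TIMP2 were not called either. MMP7 was the only secreted MMP among the tested members. Of the 9 members with values, 7 passed the filter on low counts and were tested. MMP7, MMP24 and MMP14 fell and ADAMTS1 rose at an adjusted p under 0.05, and MMP15, TIMP1 and TIMP2 were not called. That is 3 of 7 lower and 1 of 7 higher, against backgrounds of 18.1% lower and 18.7% higher among all 12702 tested genes. The median log2 fold change was -0.16 over the 7 tested members and -0.00059 over all tested genes. Groups did not overlap for 4 members in the lower direction (23.0% of all tested genes) and for 1 in the higher direction (23.2%). The members had been chosen with earlier results of these data known, so these counts describe them and are not a test of the family.

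MMP7 (NCBI gene 4316, chromosome 11), also called matrilysin, had the largest fold change among the tested members. It is a small secreted enzyme without the hemopexin domain of most MMPs, and it cleaves matrix proteins and sheds cell-surface ligands. Its level was 4.52, 4.49 and 3.86 CPM in WT replicates 1 to 3 and 1.25, 1.19 and 1.37 CPM in KO replicates 1 to 3. Even the highest KO library was far below the lowest WT library. The means were 4.29 ± 0.370 and 1.27 ± 0.0895 CPM (SD, n = 3 each), so KO held 29.6% of the WT level. The log2 fold change was -1.75 (standard error 0.19, 95% interval -2.14 to -1.36; adjusted p = 1.85e-08, edgeR quasi-likelihood test). These levels rest on 65 to 77 reads per WT library and 20 to 23 per KO library.

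MMP1 (NCBI gene 4312, chromosome 11), the interstitial collagenase that cuts fibrillar collagen, lies in the same gene cluster as MMP7 and was too low to enter the test. WT replicates 1 to 3 gave 6, 9 and 12 reads of it, and KO replicates 1 to 3 gave 1, 4 and 2. The groups did not overlap, at 27 reads together in WT and 7 in KO. The ratio of KO to WT was 0.258, with an exact conditional 95% interval of 0.0948 to 0.607 that covers counting error only. Without a filter on low counts edgeR gave a log2 fold change of -1.87 (standard error 0.60, adjusted p = 0.00794 over 16105 genes), whereas DESeq2 gave -1.93 with an adjusted p of 0.0795. MMP2 (NCBI gene 4313, chromosome 16), or gelatinase A, the type IV collagenase that MMP14 and TIMP2 activate together, had a single read (1, in WT replicate 2) and otherwise 0, so no fold is given. Of the other genes of the MMP cluster on chromosome 11, MMP8, MMP10 and MMP13 had 3, 2 and 1 reads in WT together and 0 in KO.

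MMP14 (NCBI gene 4323, chromosome 14), or MT1-MMP, is the membrane-type collagenase that also activates pro-MMP2 at the cell surface. WT replicates 1 to 3 stood at 224, 212 and 233 CPM, and KO replicates 1 to 3 at 176, 186 and 189 CPM. The highest KO library was below the lowest WT library. The means were 223 ± 10.6 and 184 ± 6.83 CPM, a log2 fold change of -0.28 (standard error 0.052, interval -0.38 to -0.17; adjusted p = 8.76e-05 in edgeR). The fall was small in proportion, to 82.5% of WT, but by TPM MMP14 was the most abundant MMP transcript in every library.

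MMP24 (NCBI gene 10893, chromosome 20) encodes MT5-MMP, a membrane-type enzyme best known from the nervous system, where it cleaves N-cadherin. It stood at 30.1, 31.9 and 31.0 CPM in WT and 21.4, 20.4 and 21.2 CPM in KO. The libraries of each group lay close together and the groups were well apart. The mean fell from 31.0 ± 0.887 to 21.0 ± 0.527 CPM, or to 67.8% (log2 fold change -0.56, standard error 0.072, adjusted p = 3.44e-07 in edgeR). Its span overlaps that of MMP24OS on the opposite strand, and since the strand setting is not given in the sources used here, reads of the 2 genes cannot be told apart where they overlap. MMP24OS had 27.6 to 37.3 estimated reads per library and a log2 fold change of 0.02 (standard error 0.21, adjusted p = 0.958 in edgeR).

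MMP15 (NCBI gene 4324, chromosome 16), or MT2-MMP, the other membrane-type member, stood at 89.2, 99.4 and 96.8 CPM in WT and 92.4, 97.1 and 102 CPM in KO. The groups overlapped. The log2 fold change was 0.03 with an interval of -0.09 to 0.15 (adjusted p = 0.703 in edgeR), and its sign turned when WT replicate 1 or KO replicate 3 was left out, at -0.013 and -0.0056.

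ADAMTS1 (NCBI gene 9510, chromosome 21) encodes a secreted metalloproteinase with thrombospondin repeats that cleaves the proteoglycans versican and aggrecan. It was the 1 tested member that rose. Its level was 88.8, 90.8 and 93.0 CPM in WT and 108, 105 and 107 CPM in KO. Both groups were tight and they did not overlap. The means were 90.9 ± 2.13 and 107 ± 1.68 CPM, a log2 fold change of 0.23 (standard error 0.052, interval 0.13 to 0.34; adjusted p = 0.000763 in edgeR).

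The inhibitors TIMP1 and TIMP2 showed no called change. TIMP2 (NCBI gene 7077, chromosome 17), which blocks MMPs and, bound to MMP14, also serves as the receptor for pro-MMP2, was the most abundant member by TPM. It stood at 381, 389 and 389 CPM in WT and 369, 381 and 367 CPM in KO. All KO libraries were below all WT libraries, by little, and the log2 fold change of -0.05 (interval -0.15 to 0.04) was not called (adjusted p = 0.397 in edgeR). TIMP1 (NCBI gene 7076, X chromosome), a broad inhibitor that is a weak one of MMP14, stood at 28.1, 33.9 and 35.0 CPM in WT and 25.3, 28.3 and 33.0 CPM in KO. WT replicate 1 was low and KO replicate 3 high for its group, and the groups overlapped. The log2 fold change was -0.16 (standard error 0.090, interval -0.35 to 0.02; adjusted p = 0.167 in edgeR). Without WT replicate 1 it was -0.25 (adjusted p = 0.0256 in edgeR), and without KO replicate 3 it was -0.27 (adjusted p = 0.0117), both past the threshold. Leaving out WT replicate 2 or 3 gave -0.13 and -0.10 (adjusted p = 0.405 and 0.446 in edgeR). Leaving out KO replicate 1 or 2 gave -0.08 and -0.15 (adjusted p = 0.512 and 0.312 in edgeR), so the call depended on which library was left out. The TIMP1 span overlaps that of SYN1, which had at most 9 reads in a library, and the TIMP2 span that of CEP295NL, which had at most 5.

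**Figure D2:**
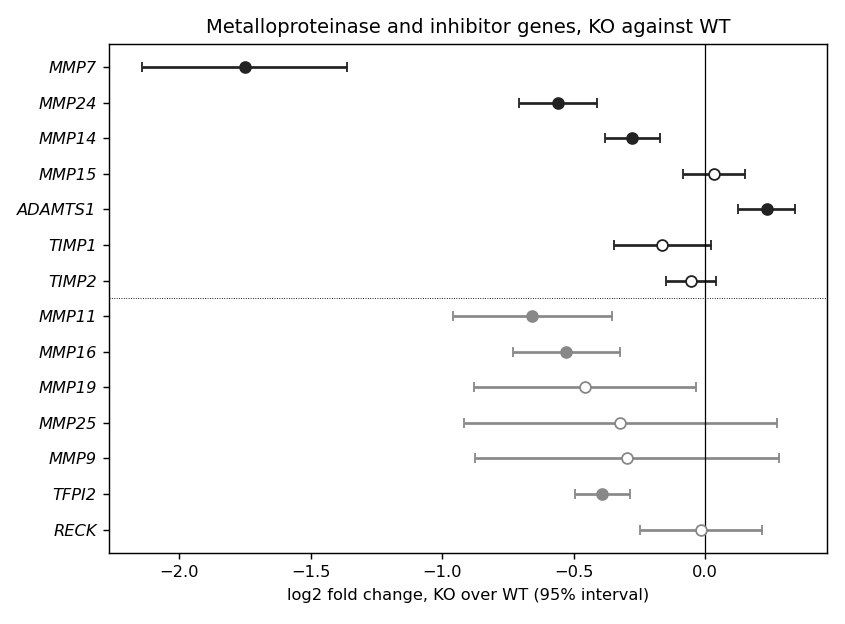
Log2 fold changes of KO over WT with 95% intervals from the edgeR test; black points are the 7 tested members and grey points the tested genes of the rest of the MMP family and of other inhibitors, filled where the adjusted p was under 0.05. MMP7 lay at -1.75, and the intervals of MMP15, TIMP1, TIMP2, MMP25, MMP9 and RECK included 0.

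Per unit of transcript length the order of the members was the same in both groups. In WT, in the deposited TPM, TIMP2 (212 ± 5.83) was followed by TIMP1 (122 ± 10.97), MMP14 (121 ± 2.81), MMP15 (46.6 ± 3.19), ADAMTS1 (34.3 ± 0.890), MMP24 (14.3 ± 0.678), MMP7 (9.77 ± 1.04), MMP1 (0.603 ± 0.194) and MMP2. In KO the levels were 199.9 ± 6.32 TPM for TIMP2, 107 ± 10.8 for TIMP1, 97.3 ± 1.29 for MMP14, 46.5 ± 1.23 for MMP15, 39.3 ± 1.41 for ADAMTS1, 9.48 ± 0.422 for MMP24, 2.85 ± 0.169 for MMP7 and 0.157 ± 0.0961 for MMP1. TIMP1 and MMP14 overlapped in both groups and cannot be ordered. All other neighbours in the order were apart in every library of a group. In TPM, MMP15 and ADAMTS1 were therefore closer to each other in KO than in WT, and MMP7 was further below MMP24.

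Summed over the 16 MMP genes in the table, transcripts came to 202, 206 and 206 TPM in WT replicates 1 to 3, whereas KO replicates 1 to 3 reached 162, 167 and 167 TPM. MMP14 made up 57.1% to 60.0% of this sum in WT and 58.7% to 59.0% in KO. The share of MMP15 was 21.5% to 24.3% in WT and 27.7% to 28.7% in KO, that of MMP24 6.79% to 7.33% and 5.48% to 6.13%, and that of MMP7 4.16% to 5.16% and 1.60% to 1.79%. The measured TIMP genes (TIMP1, TIMP2 and TIMP4, without TIMP3) summed to 318, 347 and 337 TPM in WT and 302, 308 and 312 TPM in KO. There were thus 1.57 to 1.68 TIMP transcripts per MMP transcript in WT and 1.85 to 1.87 in KO, with no overlap between the groups. The ratio of TIMP2 to MMP14 alone was 1.69 to 1.86 in WT and 1.97 to 2.12 in KO. These ratios describe RNA of genes chosen with results known and were not tested, and they leave out TIMP3.

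**Figure D3:**
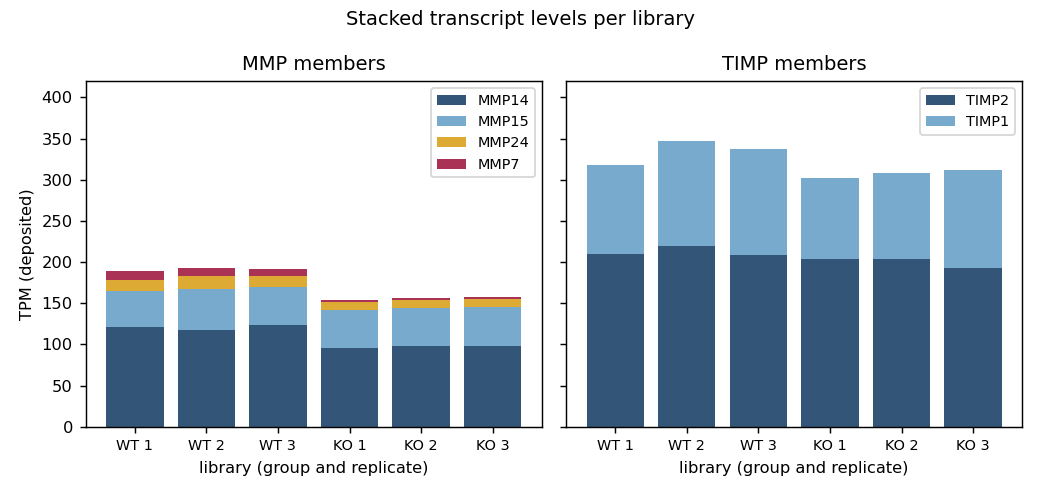
Deposited TPM per library, stacked for the 4 most abundant MMP members (left) and for TIMP2 and TIMP1 (right), on a linear axis from 0. The MMP stacks were lower in all 3 KO libraries, mainly through MMP14, MMP24 and MMP7. The TIMP stacks were also lower in all 3 KO libraries, by a smaller share.

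Of 18 other genes of the MMP family, 10 were in the table and 5 were tested, of which 2 fell and 0 rose, against 18.1% and 18.7% of all tested genes (median log2 fold change -0.46). MMP11, or stromelysin 3, fell from 5.51 ± 0.126 to 3.49 ± 0.622 CPM (log2 fold change -0.66, standard error 0.15, adjusted p = 0.000767 in edgeR). MMP16, the membrane-type enzyme MT3-MMP, fell from 15.8 ± 1.98 to 10.9 ± 0.707 CPM (log2 fold change -0.53, standard error 0.099, adjusted p = 9.78e-05 in edgeR). In both genes the groups did not overlap. MMP19, MMP25 and the gelatinase gene MMP9 had log2 fold changes of -0.46, -0.32 and -0.30 and were not called (adjusted p = 0.0834, 0.418 and 0.439 in edgeR). MMP17 had 5, 6 and 6 reads in WT and 8, 12 and 11 in KO and was not tested. MMP23B had 25 reads in WT together and 22 in KO.

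Of 4 other inhibitors, TFPI2 and RECK were tested. TFPI2, a secreted Kunitz-type protease inhibitor that also acts on some MMPs, fell from 175 ± 2.44 to 133 ± 4.89 CPM (log2 fold change -0.39, standard error 0.050, adjusted p = 3.77e-07 in edgeR). RECK, a membrane-anchored MMP inhibitor, was at 7.80 ± 0.590 and 7.71 ± 0.621 CPM (log2 fold change -0.02, interval -0.25 to 0.21). TIMP4 had 1 read in WT replicate 3 and 0 elsewhere, and A2M had 7 reads in WT and 3 in KO.

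Of 26 listed ADAMTS and ADAMTS-like genes, the relatives of ADAMTS1, 16 were tested, 5 rose and 4 fell (median -0.04), beside 18.7% higher and 18.1% lower over all tested genes. ADAMTS12 rose from 28.8 ± 3.01 to 75.4 ± 0.472 CPM and the procollagen peptidase gene ADAMTS3 from 55.8 ± 2.18 to 86.4 ± 2.19 CPM. THSD4, an ADAMTS-like gene that promotes fibrillin assembly, fell from 26.5 ± 1.07 to 12.8 ± 1.21 CPM, and ADAMTS7, which has pseudogene copies among which reads can be split, from 6.98 ± 0.424 to 3.09 ± 0.471 CPM. All 4 passed in edgeR with an adjusted p of 1.37e-07 or less. ADAMTS5, next to ADAMTS1 on chromosome 21 and named after its value was seen, rose from 1.47 ± 0.541 to 2.54 ± 0.188 CPM (adjusted p = 0.00806 in edgeR).

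Of 12 ADAM sheddases and partners 10 were tested, 4 rose and 1 fell (median 0.08), beside the same 18.7% and 18.1% over all tested genes. ADAM17, which releases TNF and EGF receptor ligands and is inhibited by TIMP3, rose from 162 ± 14.6 to 203 ± 7.14 CPM. ADAM10, the other main sheddase, went the opposite way, from 280 ± 8.92 to 221 ± 12.7 CPM (log2 fold changes 0.33 and -0.34, adjusted p = 3.81e-05 and 5.25e-06 in edgeR). ADAM8 rose from 1.19 ± 0.350 to 3.55 ± 0.381 CPM and ADAM12 from 0.177 ± 0.118 to 1.23 ± 0.239 CPM (adjusted p = 1.06e-06 and 5.69e-06 in edgeR). ADAM12 had 5, 1 and 3 reads in WT, at the floor, and 16, 23 and 23 in KO. It passed the filter on low counts only through the KO libraries, so its test is not independent of the rise.

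The pericellular proteases and inhibitors that feed into MMP activation had 2 higher and 8 lower of 16 tested (median -0.19), where all tested genes had 18.7% higher and 18.1% lower. Whether the list differs from other genes was not tested. PLAU, encoding the urokinase that generates plasmin, an activator of pro-MMPs, fell from 157 ± 1.89 to 101 ± 3.64 CPM (log2 fold change -0.64, adjusted p = 5.00e-11 in edgeR). S100A10, the plasminogen-binding partner of annexin A2, fell from 326 ± 5.44 to 169.9 ± 4.57 CPM (adjusted p = 5.62e-15). Inhibitors fell as well: SPINT2, a Kunitz-type inhibitor of membrane serine proteases, from 33.5 ± 2.55 to 5.16 ± 0.711 CPM, and SERPINE2, or protease nexin 1, from 50.1 ± 2.87 to 22.7 ± 1.96 CPM. Both passed with an adjusted p of 6.21e-13 or less in edgeR. FURIN, which removes the propeptide of membrane-type MMPs, was not called (named after its value was seen: log2 fold change -0.09, adjusted p = 0.289 in edgeR). PLG, the plasminogen gene, had 0 reads in 5 libraries and 1.18 estimated reads in KO replicate 1.

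Transcription factor genes known from MMP promoters had 9 higher and 3 lower of 18 tested (median 0.17), again beside 18.7% and 18.1% over all tested genes, a difference that was not tested. FOS and JUN, whose products form AP-1, rose from 6.88 ± 1.83 to 20.3 ± 0.888 CPM and from 85.4 ± 3.90 to 126 ± 5.60 CPM. ETV5, of the PEA3 group of ETS factors, rose by 0.53 on the log2 scale and CEBPB by 0.42. All 4 passed in edgeR with an adjusted p of 2.57e-06 or less. Not all FOS and JUN family genes on the list rose. FOSL2, the most abundant of them by CPM, fell from 374 ± 5.19 to 308 ± 4.50 CPM, and its groups did not overlap. FOSL1 overlapped between the groups (32.7 ± 2.03 and 30.8 ± 1.14 CPM). FOSB, JUNB and JUND were higher in every KO library than in any WT library. Of all tested genes, 23.2% were higher in this way and 23.0% lower. FOSL1, FOSL2, FOSB, JUNB and JUND were named after their values were seen.

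Substrates of these enzymes had 6 higher and 5 lower of 17 tested (median 0.08), compared with 18.7% and 18.1% over all tested genes. The matrix glycoprotein gene TNC rose from 1.23 ± 0.144 to 8.76 ± 0.443 CPM, and HSPG2, encoding the basement membrane proteoglycan perlecan, from 1005 ± 42.1 to 1782 ± 153 CPM. IGFBP3 fell from 181 ± 4.10 to 128 ± 5.47 CPM and HBEGF, an EGF receptor ligand that MMPs and ADAMs shed, from 13.0 ± 1.57 to 6.46 ± 0.283 CPM. All 4 passed in edgeR with an adjusted p of 1.96e-08 or less. VCAN, the versican gene and a substrate of ADAMTS1, named after its value was seen, was at 1474 ± 89.2 and 1589 ± 40.3 CPM and was not called (adjusted p = 0.0903 in edgeR).

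**Figure D4:**
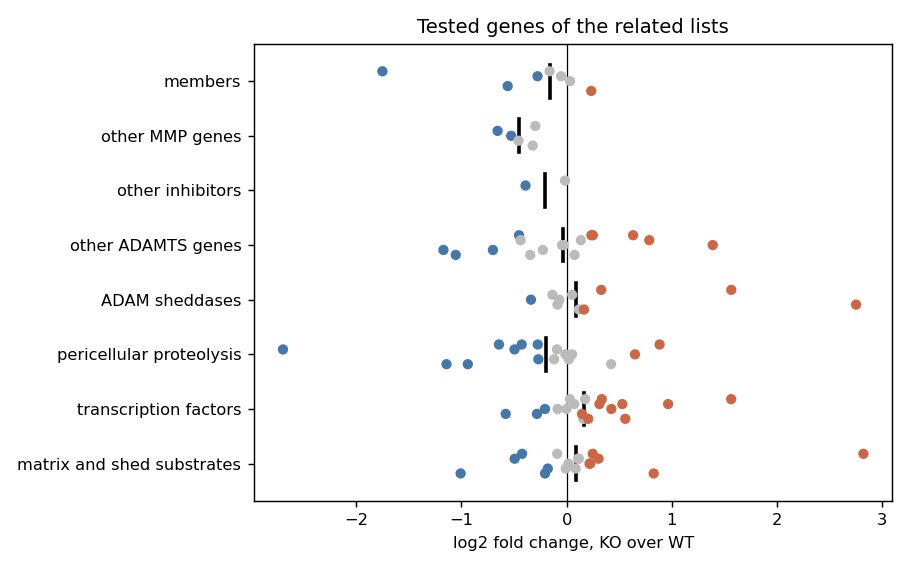
Log2 fold changes of KO over WT for the tested genes of each list; points are genes, coloured where the adjusted p was under 0.05 (orange higher, blue lower) and grey otherwise, thick bars are list medians, and the thin line is the median of all tested genes. The 5 other tested MMP genes all lay below 0, whereas ADAMTS relatives and substrates spread to both sides.

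Outside these lists, the genes whose profile over the 6 libraries was most like that of MMP7 were CAV1, SEMA3E and NPR1. Likeness was the root mean square difference of log2 CPM, each gene centred on its own mean, and was 0.077 for CAV1, 0.080 for SEMA3E and 0.095 for NPR1. CAV1, encoding the caveolar coat protein caveolin-1, averaged 575 ± 31.3 CPM over the WT libraries and 187 ± 1.98 CPM over the KO ones. SEMA3E, a secreted semaphorin, stood at 22.7 ± 1.07 and 7.26 ± 0.0535 CPM, and NPR1, a natriuretic peptide receptor, at 88.6 ± 6.94 and 28.1 ± 1.76 CPM. With 2 groups of 3 libraries, such likeness reflects mostly a fold change of like size.

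At the level of RefSeq models, 14 transcripts of the members were listed and 9 were tested, of which 0 rose (background 1.14%) and 1 fell (background 0.990%), with 4 at an unadjusted p under 0.05 in edgeR. The transcript that passed was NM_004995 of MMP14, with a log2 fold change of -0.29 (adjusted p = 0.0442). It missed the threshold when any 1 of the 6 libraries was left out (adjusted p = 0.0827 to 0.186) and without a filter on low counts (adjusted p = 0.0634). NM_002423 of MMP7 and NM_006988 of ADAMTS1, each the only listed model of its gene, narrowly missed it (adjusted p = 0.0531 and 0.0530). MMP24 was split over 4 models, and XM_017027598 held most of its reads, 467 ± 56.6 in WT and 329 ± 13.3 in KO (log2 fold change -0.50, adjusted p = 0.0978). NM_006690 of MMP24 had 69.5, 0 and 9.39 estimated reads in WT and 0 in KO, and was not tested. For TIMP1, NM_003254 had 497 ± 59.1 and 432 ± 55.2 reads and XM_017029766 had 52.8 ± 4.18 and 52.9 ± 12.1 reads, and neither was called. Assigning reads among overlapping models is uncertain, as MMP1 shows: its few reads fell wholly on NM_002421 in 3 libraries and wholly on NM_001145938 in the other 3.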

How the data were processed

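The submitters' processing notes name HISAT2 2.0.1 and Cuffdiff 2.2.1, and cutadapt 1.9.1 beside FastQC 0.10.1, with build GRCh37. How the strand was treated is not given in the sources used here, nor is the kit. The authors deposited estimated counts of reads per gene and per RefSeq transcript. They also deposited TPM and FPKM per library. Estimated counts were rounded to whole reads and tested with edgeR 4.0.16 in R 4.3.3 on all 12702 genes (44030 transcripts) kept by filterByExpr (minimum count 10, minimum total 15). TMM factors, robust dispersions, the quasi-likelihood test of KO over WT, and Benjamini-Hochberg adjustment followed, with a threshold of 0.05. Standard errors were derived from each log2 fold change and its F statistic, and intervals use the moderated degrees of freedom. TPM entered for levels between genes, and TPM and FPKM entered alternative fits with limma 3.58.1. DESeq2 1.42.0 was another alternative. Libraries held 16796964 to 17127468 reads, and within-group pairs differed by more than sampling noise. The edgeR step was tested on simulated data.

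Members and lists were chosen with earlier results of these data known. The naming rule takes all members, all tested genes of the lists of other MMPs, other inhibitors and overlapping genes, up to 4 called genes with the smallest adjusted p of each other list, RETREG1 and TAX1BP1, and the 3 genes nearest in profile to the member with the largest fold change. Renal, fibroblast, endothelial, leukocyte and distal nephron markers checked the cell identity. Gene order, chromosomes and promoter windows came from NCBI RefSeq GRCh38.p14 tables, in which 12681 tested genes had an entry. Counting intervals and floors cover counting error only.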

Additional observations from a re-analysis of the deposited data

How the results depend on the processing

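MMP7, MMP24, MMP14 and ADAMTS1 kept their direction and their call in every alternative that tested them, in edgeR with other size factors or filters, in DESeq2, in limma on TPM or FPKM, with the replicate number as a block, and without each library in turn. The log2 fold change ranged from -1.82 to -1.30 for MMP7, -0.59 to -0.50 for MMP24, -0.31 to -0.25 for MMP14 and 0.19 to 0.25 for ADAMTS1. MMP7 did not pass the filter of 5 CPM in 3 libraries. Across alternatives the members called numbered 1 higher and 2 to 4 lower, the fourth being TIMP1 or, with no filter, MMP1. MMP15 changed sign in limma on log2 of TPM plus 1 or plus 0.1 (-0.0019 in both) and without WT replicate 1 (-0.013) or KO replicate 3 (-0.0056), reached 0.068 without KO replicate 1, and was called in none.

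Same-numbered WT and KO libraries deviated together with correlations of 0.156, 0.0134 and 0.113. Differently numbered ones had correlations of -0.156 to 0.055. No label pairs the numbers, and the correlation for replicate 2 was only 0.0134, so the main fit did not pair them. With the replicate block TIMP1 passed (log2 fold change -0.16, adjusted p = 0.0234), 3013 genes were higher and 2934 lower, and the transcript counts went from 503 higher and 436 lower to 44 and 45, NM_004995 of MMP14 losing its call (adjusted p = 0.150). Without each library in turn they were 50 to 171 higher and 69 to 146 lower. Those fits had fewer samples. Gene counts without each library in turn were 1964 to 2445 higher and 1837 to 2327 lower, beside 2380 and 2299 with all libraries. The causes of the drops in transcript counts, under the block or without a library, were not tested. Depth limits MMP1 and MMP2. MMP1 had 6 to 12 reads per WT library and 1 to 4 per KO library, and MMP2 at most 1, where the floor is 3 reads.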

Other observations

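The genes around the members went both ways. The counts of called neighbours stand beside 18.7% higher and 18.1% lower over all 12702 tested genes, and a difference from these shares was not tested. The 10 nearest tested genes of MMP7 on chromosome 11 (5 on each side) had a median log2 fold change of 0.03 and ranged from -0.41 to 0.50, with 3 called higher and 1 lower. Among them the apoptosis inhibitor gene BIRC3 and the inflammatory caspase gene CASP4 rose by 0.50 and 0.49, and TMEM123 fell by 0.25. The neighbours of MMP14 had a median of -0.06 (1 higher, 2 lower) and those of MMP24 a median of -0.03 (0 higher, 1 lower). The neighbours of ADAMTS1 had a median of 0.07 (4 higher, 2 lower), among them the junctional adhesion gene JAM2 with a log2 fold change of 3.76. Medians over the tested genes of chromosomes 11, 14, 20 and 21 were -0.02, -0.02, -0.03 and -0.0071.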
